A study of Arabidopsis thaliana with 6 samples.

Results

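The 10 genes described here encode enzymes of jasmonate biosynthesis in Arabidopsis thaliana, chosen by gene ID: the 13-lipoxygenases LOX2 (AT3G45140), LOX3 (AT1G17420) and LOX4 (AT1G72520), the allene oxide synthase AOS (AT5G42650), the allene oxide cyclases AOC1 (AT3G25760), AOC2 (AT3G25770), AOC3 (AT3G25780) and AOC4 (AT1G13280), the reductase OPR3 (AT2G06050) and the conjugating enzyme JAR1 (AT2G46370). All 10 were among the 33323 gene IDs measured. Seedlings of the hid1 (hidden treasure 1) mutant and of the wild type (WT), both aged 5 days, gave 3 poly(A) RNA-seq libraries per genotype, which the submitters call biological replicates. Both genotypes were grown in cR, which outside knowledge of the study identifies as continuous red light. The HID1 locus makes a long noncoding RNA with a known role in red-light seedling growth. The labels name 1 mutant line. Values are RPKM as the authors gave them, that is, read numbers divided by gene length and by library depth. Since RPKM is a level per length, it can be set side by side between genes.

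Jasmonates are lipid-derived hormones of wound response, defence, fertility and growth restraint. In the plastid, a 13-lipoxygenase oxygenates alpha-linolenic acid, AOS turns the product into an unstable allene oxide, and an AOC closes its ring to give 12-oxophytodienoic acid (OPDA). In the peroxisome, OPR3 reduces OPDA and rounds of beta-oxidation shorten it to jasmonic acid, which JAR1 joins to isoleucine to form the active hormone. Many of these genes are themselves induced by jasmonate. JAR1 is also known as FIN219, a gene found through seedling responses to far-red light.

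AOS, AOC1, AOC2 and LOX2, which fell in hid1, are shown first with the 250 bases before their annotated starts, read from RefSeq's TAIR10.1 genome and written 5′ to 3′ on the gene's strand. They are shown because each of these genes was called lower in hid1. Whether they are regulated together was not tested. Capitals mark matches, on either strand, to CACGTG (the G-box, which MYC and PIF factors are known to bind), CACATG (the PBE-box), AACGTG (a variant of the G-box) and TATAAA (the form of a core promoter element). In AOS, 2 matches to the last overlap on opposite strands. The ethylene-response motif GCCGCC was searched too and had 0 matches in the 10 genes' windows.
LOX2 (chr3:16524995-16525244, plus strand): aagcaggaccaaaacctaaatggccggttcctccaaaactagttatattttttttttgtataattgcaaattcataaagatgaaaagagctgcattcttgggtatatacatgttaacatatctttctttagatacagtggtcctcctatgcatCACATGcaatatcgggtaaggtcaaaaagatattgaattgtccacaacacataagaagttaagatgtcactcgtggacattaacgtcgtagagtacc
AOS (chr5:17099596-17099845, minus strand): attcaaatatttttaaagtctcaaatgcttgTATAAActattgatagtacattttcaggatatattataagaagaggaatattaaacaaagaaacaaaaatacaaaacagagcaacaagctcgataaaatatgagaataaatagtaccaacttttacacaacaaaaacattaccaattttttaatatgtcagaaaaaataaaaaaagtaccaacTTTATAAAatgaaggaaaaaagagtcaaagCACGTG
AOC1 (chr3:9403529-9403778, plus strand): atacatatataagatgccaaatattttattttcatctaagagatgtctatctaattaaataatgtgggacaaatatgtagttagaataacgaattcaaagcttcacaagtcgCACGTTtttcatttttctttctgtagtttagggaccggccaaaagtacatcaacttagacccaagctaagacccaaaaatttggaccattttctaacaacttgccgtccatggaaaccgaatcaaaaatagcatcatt
AOC2 (chr3:9406419-9406668, plus strand): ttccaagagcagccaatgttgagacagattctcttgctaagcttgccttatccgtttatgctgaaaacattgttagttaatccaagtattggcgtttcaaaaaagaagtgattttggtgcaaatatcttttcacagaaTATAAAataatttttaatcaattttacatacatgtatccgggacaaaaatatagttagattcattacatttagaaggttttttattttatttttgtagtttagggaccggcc

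AOS held the only CACGTG among the 10 windows, directly before its start, against 6.49% of the 27431 windows of protein-coding genes. LOX2 held CACATG, found in 11.1% of all windows, and so did LOX3, AOC4 and JAR1, none of which passed the test. The window of AOC4 overlaps another annotated gene, AT1G13270. AOC1 held AACGTG on the opposite strand, found in 7.53% of all windows, as did LOX4 on its own strand. AOC2 held only TATAAA, found in 47.3% of all windows. No motif of this set was thus shared by the 4 genes. The run tgtagtttagggaccggcc stood 117 bases before the start of AOC1 and 19 bases before that of AOC2, and in 2 of the 27431 windows, those of this pair. A match is only a match of letters.

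AOC1, AOC2 and AOC3 lie side by side on the plus strand of chromosome 3 (TAIR10.1 positions 9403779 to 9405338, 9406669 to 9408071 and 9409160 to 9411090), with 1330 and 1088 bases between neighbours. AOC4 lies on chromosome 1 (4547388 to 4548894). Each AOC has 2 annotated exons. The coding sequences of AOC1 and AOC2 were 90.3% identical, those of AOC1 and AOC3 83.2%, and those of AOC4 and the others 74.9% to 80.2%. The longest identical coding run, between AOC1 and AOC3, is printed because a read inside it fits both genes.
AOC1 and AOC3, coding bases 329 to 401 of AOC1: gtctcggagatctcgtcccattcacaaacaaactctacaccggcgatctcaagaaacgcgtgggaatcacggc
Of all windows of 50 exonic bases, 2.20% in AOC1, 0.0832% in AOC2, 1.60% in AOC3 and 0% in AOC4 and in the 6 other genes were found elsewhere in the genome. The sources used here do not say how reads with several matches were treated. No annotated gene overlapped any of the 10 genes. LOX3 and LOX4 were 81.1% identical in coding sequence, and LOX2 63.8% identical to each of them. LOX2 (chromosome 3, 16525245 to 16529352) has 7 exons in its longest transcript, and AOS (chromosome 5, 17097564 to 17099595, minus strand) is intronless.

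Depth was about 17.9 to 23.5 M reads in hid1 and 19.7 to 26.1 M reads in WT, estimated from the RPKM values. AT2G35747 and AT2G35750, overlapping features on chromosome 2, were listed at 0 in every hid1 library and at 10.1 to 16.73 RPKM in WT libraries. Whether they are the mutated locus could not be settled, since no gene ID was paired with HID1. WT replicate 1 stood apart in root markers: their summed level was 114.2 to 192.8 RPKM in hid1, and 120.9 RPKM in WT replicate 1 against 58.66 RPKM in the lowest WT library. Among the 794 genes that fell in hid1, hid1 replicate 3 was the highest hid1 library in 55.2%, so results are also given without these libraries below.

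AOS, AOC2, AOC1 and LOX2, which encode enzymes of plastid steps, fell in hid1, to 31.9%, 40.2%, 42.5% and 52.8% of their WT means. Of the other plastid-step genes, LOX3, AOC3 and AOC4 did not pass and LOX4 was not tested. None of the 9 genes tested rose, 4 fell and 5 did not pass, where 4.21% of the 18871 genes tested fell, 9.41% rose and 13.6% changed in either direction (limma on log2(RPKM + 1), called at an adjusted p of 0.05 or lower after Benjamini-Hochberg adjustment over all genes tested). Of all calls, 69.1% were higher in hid1, and 49.3%, 52.1% and 55.4% were so with quantile normalization, median-ratio scaling and a length trend removed, under each of which the same 4 biosynthesis genes fell. Among the 9 genes tested, all hid1 libraries lay below all WT libraries in 4, the same 4 that fell, and wholly above in 0. Of all genes tested, 11.4% lay wholly below. The calls rest on the same values, so the lack of overlap is no separate support for them. Over all genes tested the hid1 libraries lay wholly above in 23.1%, and the genotypes did not overlap in 34.6% in all. Without the filter on low values the count of genes that fell was 2, AOS and AOC1. LOX4 was under the filter of a mean of 1 RPKM in either genotype and was not tested. The median log2 fold change (hid1 minus WT) of the 9 was -0.33, beside 0.07 over all genes tested. In whole seedlings, fewer cells of a type and less RNA per cell cannot be told apart.

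**Figure D1:**
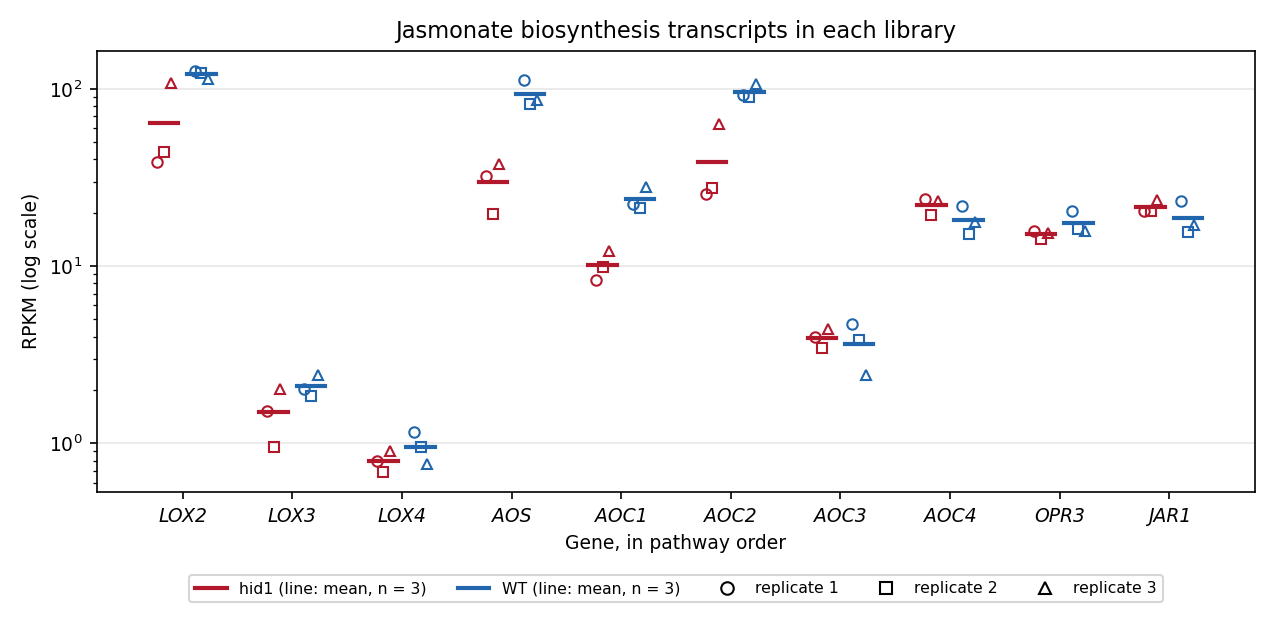
RPKM (log axis) of the 10 jasmonate biosynthesis genes in each library, hid1 in red and WT in blue, with symbols for replicates and lines for means (n = 3 each). The hid1 libraries lay below all WT libraries for LOX2, AOS, AOC1 and AOC2, and the genotypes overlapped for the other 6 genes.

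LOX2, a plastid 13-lipoxygenase known for the jasmonate made in wounded leaves, was the most abundant member in both genotypes. It stood at 38.82, 44.12 and 108.64 RPKM in hid1 replicates 1, 2 and 3, and at 126.48, 122.95 and 113.11 RPKM in WT replicates 1, 2 and 3. The genotypes did not overlap, but hid1 replicate 3 lay close under the lowest WT library. The means were 63.9 ± 38.9 RPKM in hid1 and 120.8 ± 6.93 RPKM in WT (SD, n = 3 each), a log2 fold change of -1.06 (SE 0.30, limma adjusted p = 0.0404). Without hid1 replicate 3 the log2 fold change was -1.52 (limma adjusted p = 0.000971). The call was lost without hid1 replicate 1 or 2, without WT replicate 2 or 3, and without the filter on low values, with limma adjusted p between 0.0694 and 0.149.

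LOX3 and LOX4, 13-lipoxygenases known to act together in male fertility, were low in these seedlings. LOX3 stood at 1.53, 0.95 and 2.02 RPKM in hid1, and at 2.03, 1.86 and 2.42 RPKM in WT. The genotypes overlapped, and the log2 fold change of -0.33 (95% interval -0.76 to 0.10) did not pass (limma adjusted p = 0.287). LOX4 stood at 0.69 to 0.90 RPKM in hid1 and at 0.76 to 1.16 RPKM in WT, and rested on about 43 to 71 reads per library, against about 2260 to 9600 for LOX2. Its untested log2 difference was -0.12.

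AOS, a cytochrome P450 of the CYP74 family and the committed step toward jasmonate, had the lowest hid1 level relative to WT of the 10 genes. It stood at 32.28, 19.69 and 37.82 RPKM in hid1, and at 112.48, 82.66 and 86.10 RPKM in WT. Every hid1 library was below every WT library, and the highest of hid1 was under the lowest of WT by more than the range within hid1. The means were 29.9 ± 9.29 RPKM in hid1 and 93.7 ± 16.3 RPKM in WT, a log2 fold change of -1.65 (SE 0.21, limma adjusted p = 0.000704). The call held in all 13 other settings tried, with log2 fold changes of -1.84 to -1.38 when a library was left out.

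Hydroperoxide lyase is a related CYP74 enzyme known to use the same lipoxygenase product as AOS. Its gene HPL1 stood at 0.67, 0.35 and 1.33 RPKM in hid1 and at 2.47, 1.42 and 1.51 RPKM in WT. Whether HPL1 makes a working enzyme in these plants was not tested. All hid1 libraries lay below all WT libraries, as in 11.4% of the genes tested. HPL1 passed the filter on low values through WT alone, with means of 0.783 RPKM in hid1 and 1.8 RPKM in WT. The log2 fold change of -0.67 (95% interval -1.20 to -0.14) did not pass (limma adjusted p = 0.0897). HPL1 was named here after its values were seen.

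The 4 AOC genes, copies of the enzyme that forms OPDA, did not show the same values. AOC2, the most abundant copy in every library, stood at 25.52, 27.49 and 63.51 RPKM in hid1, and at 92.90, 90.48 and 106.38 RPKM in WT. As with LOX2, hid1 replicate 3 was the hid1 library nearest to WT. The log2 fold change of AOC2 was -1.41 (SE 0.27, limma adjusted p = 0.00761), and -1.82 without hid1 replicate 3. Its call was lost without the filter on low values (limma adjusted p = 0.0521).

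AOC1 stood at 8.33, 9.90 and 12.20 RPKM in hid1, and at 22.34, 21.20 and 28.04 RPKM in WT. The genotypes were clearly apart, and the log2 fold change of -1.16 (SE 0.16, limma adjusted p = 0.000964) held in all 13 other settings. AOC3 stood at 3.99, 3.45 and 4.41 RPKM in hid1, and at 4.72, 3.81 and 2.42 RPKM in WT. Its libraries overlapped, and the log2 fold change of 0.12 (95% interval -0.32 to 0.55) did not pass (limma adjusted p = 0.732). Without WT replicate 3 it was -0.09. AOC4 stood at 24.04, 19.52 and 23.20 RPKM in hid1, and at 21.98, 15.11 and 17.81 RPKM in WT. It overlapped too, with a log2 fold change of 0.28 (95% interval -0.05 to 0.61, limma adjusted p = 0.235). The intervals of AOC3 and AOC4 lay wholly above those of AOC1 and AOC2.

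Summed over the 4 copies, AOC transcripts stood at 61.9, 60.4 and 103.3 RPKM in hid1, and at 141.9, 130.6 and 154.6 RPKM in WT. The sum in hid1 was 52.8% of that in WT, a log2 difference of -0.96. All hid1 libraries were below all WT libraries, which gave p = 0.1 in a two-sided exact permutation test, the smallest that 3 against 3 libraries allow. AOC2 made up 41.2%, 45.5% and 61.5% of the sum in hid1, and 65.5%, 69.3% and 68.8% in WT. AOC4 made up 38.8%, 32.3% and 22.5% in hid1, and 15.5%, 11.6% and 11.5% in WT. The genotypes did not overlap in either share. The shares are parts of 1 sum and so do not move independently. In RPKM, AOC4 itself overlapped between genotypes. AOC1 held 11.8% to 16.4% in hid1 and 15.7% to 18.1% in WT, with overlap. AOC3 held 4.27% to 6.45% in hid1 and 1.56% to 3.33% in WT, without overlap.

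**Figure D2:**
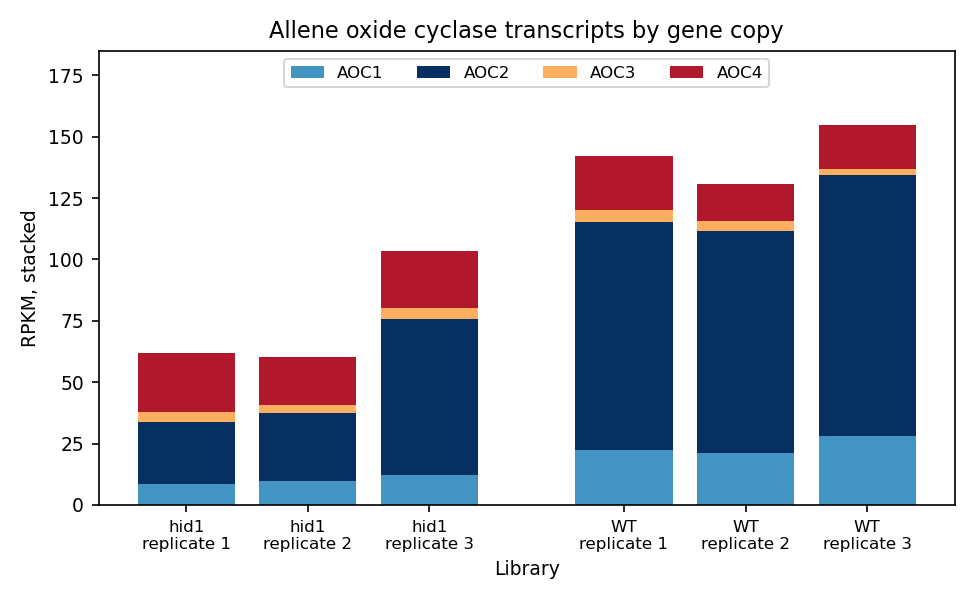
Stacked RPKM of AOC1 to AOC4 in each library, hid1 at left and WT at right. The stacks reach 60.4 to 103.3 RPKM in hid1 and 130.6 to 154.6 RPKM in WT, and AOC2 (dark blue) is the largest part in each library.

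OPR3, the peroxisomal reductase of OPDA, stood at 15.76, 14.15 and 15.44 RPKM in hid1, and at 20.37, 16.13 and 15.71 RPKM in WT. The genotypes overlapped narrowly, and the log2 fold change of -0.18 (95% interval -0.47 to 0.10) did not pass (limma adjusted p = 0.372). JAR1 stood at 20.54, 20.53 and 23.53 RPKM in hid1, and at 23.34, 15.57 and 17.03 RPKM in WT. WT replicate 1 lay within the hid1 range, and the log2 fold change of 0.22 (95% interval -0.12 to 0.55) did not pass (limma adjusted p = 0.372). Without WT replicate 1 it was 0.38 (limma adjusted p = 0.0659). The intervals of OPR3 and JAR1 lay wholly above that of AOS, as did those of LOX3, AOC3 and AOC4. The interval of LOX2 (-1.73 to -0.40) overlapped those of LOX3 and OPR3 and lay below those of AOC3, AOC4 and JAR1.

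**Figure D3:**
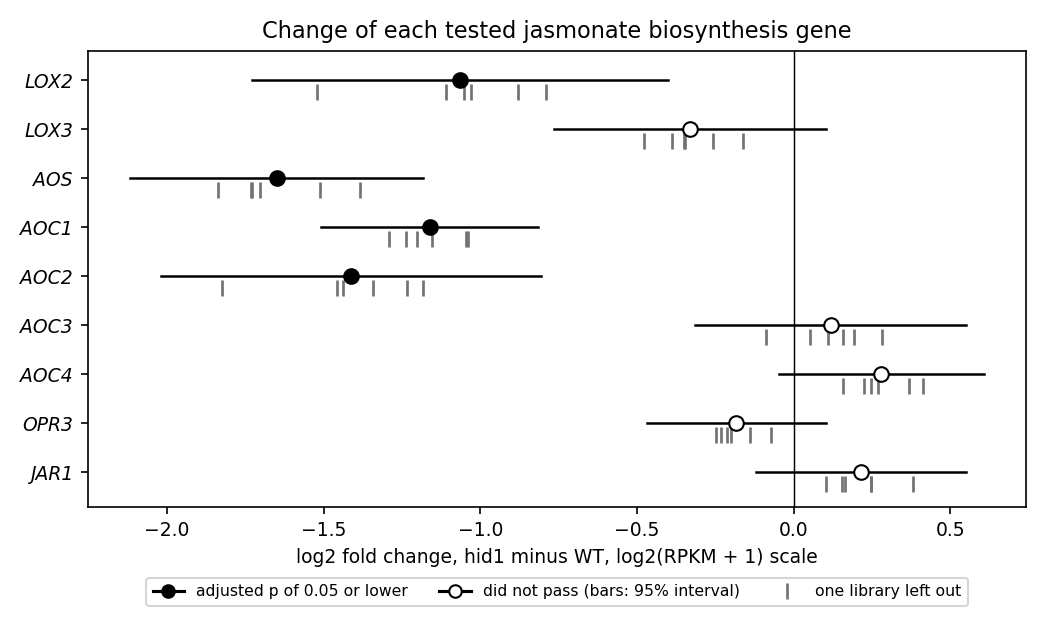
Log2 fold changes (hid1 minus WT, log2(RPKM + 1) scale) of the 9 tested genes with 95% intervals, filled where the adjusted p was 0.05 or lower. Grey ticks give the value with 1 library left out. LOX2, AOS, AOC1 and AOC2 stayed below 0 in each of these, while the ticks of AOC3 lie on both sides of 0.

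The order of levels differed between genotypes. In hid1 the means ran LOX2 (63.9 RPKM), AOC2 (38.8), AOS (29.9), AOC4 (22.3), JAR1 (21.5), OPR3 (15.1), AOC1 (10.1), AOC3 (3.95), LOX3 (1.5) and LOX4 (0.793). Neighbours from LOX2 to JAR1 overlapped there, and those from JAR1 down did not. In WT they ran LOX2 (120.8 RPKM), AOC2 (96.6), AOS (93.7), AOC1 (23.9), JAR1 (18.6), AOC4 (18.3), OPR3 (17.4), AOC3 (3.65), LOX3 (2.103) and LOX4 (0.957). There AOC2 overlapped AOS, AOC1 overlapped JAR1, JAR1 overlapped AOC4, AOC4 overlapped OPR3 and AOC3 overlapped LOX3. In WT, LOX2, AOC2 and AOS thus stood above the other 7 genes without overlap. In hid1, LOX2 and AOC2 still did, while AOS, at 19.69 RPKM in its lowest library, overlapped AOC4 and JAR1.

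In hid1, replicate 3 was the highest library for LOX2, AOS, AOC1 and AOC2 alike. In WT the highest library was replicate 1 for LOX2 and AOS and replicate 3 for AOC1 and AOC2. Left without WT replicate 1, the log2 fold changes were -1.03 for LOX2, -1.51 for AOS, -1.20 for AOC1 and -1.44 for AOC2, and all 4 calls held.

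Genes that act beside these 10 were described by lists, whose median log2 fold changes stand beside 0.07 over all genes tested and -0.33 for the biosynthesis genes. Of all genes tested, 9.41% rose and 4.21% fell. HPL1, VSP1 and PDF1.2 passed the filter on low values through WT alone and CYP94B3 and CYP94C1 through hid1 alone, so counts and medians of their lists rest in part on that filter. Of 6 further lipoxygenase, OPR and hydroperoxide lyase genes, 2 passed as higher, 0 as lower and 4 did not pass (median 0.21). LOX1, a 9-lipoxygenase outside jasmonate synthesis, rose to 12.45, 7.98 and 14.22 RPKM in hid1, against 4.35, 3.73 and 4.67 RPKM in WT (log2 fold change 1.23, limma adjusted p = 0.00223). OPR2, a reductase related to OPR3, rose to 14.23, 12.55 and 15.53 RPKM in hid1, against 10.05, 6.98 and 7.63 RPKM in WT (0.72, limma adjusted p = 0.0111). In both, each hid1 library was above each WT library, and OPR2 lost its call without hid1 replicate 3 (limma adjusted p = 0.0528). LOX6, the remaining 13-lipoxygenase gene, averaged 10.5 ± 1.41 RPKM in hid1 and 10.2 ± 0.327 RPKM in WT (0.04, 95% interval -0.25 to 0.32), and was named after its values were seen.

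Of 8 genes of lipases and of the desaturases that make linolenic acid, 5 were tested, 1 rose and 2 were listed at 0 in all libraries (median 0.21). The gene that rose was AT1G02660, annotated as an alpha/beta-hydrolase, at 10.2 ± 0.785 RPKM in hid1 and 5.86 ± 0.673 RPKM in WT (0.71, limma adjusted p = 0.00632). Without WT replicate 1, AT3G61680 was also called higher (limma adjusted p = 0.0242). Of 10 genes of precursor transport and peroxisomal beta-oxidation, 6 passed as higher and 0 as lower (median 0.42). ACX1, an acyl-CoA oxidase known to act on jasmonate precursors, rose to 60.30, 82.62 and 64.80 RPKM in hid1, against 37.04, 34.45 and 39.36 RPKM in WT (0.88, limma adjusted p = 0.00175). MFP2 averaged 30.0 ± 3.92 RPKM in hid1 and 20.2 ± 1.72 RPKM in WT, and AIM1 40.7 ± 3.92 RPKM in hid1 and 30.2 ± 1.42 RPKM in WT. Both encode multifunctional beta-oxidation proteins. AT1G70480 rose too, as did ACX5 and KAT2, named here to complete the count. The genes that rose numbered 2 with quantile normalization, 3 with median-ratio scaling or with a length trend removed, and 1 to 5 with a library left out. Without WT replicate 1, KAT5, a thiolase gene, fell (-0.58, limma adjusted p = 0.0254). ACX1 was called in all 13 other settings, and was the only gene of the list called without hid1 replicate 3, WT replicate 2 or WT replicate 3. OPCL1, the ligase that activates the OPR3 product and here named after its values were seen, averaged 5.67 ± 0.872 RPKM in hid1 and 7.497 ± 0.938 RPKM in WT (-0.35, limma adjusted p = 0.145).

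Downstream of the hormone, 12 genes of jasmonate turnover and modification gave 9 tested, of which 1 rose (median 0.20). ST2A, a sulfotransferase of hydroxyjasmonate, rose to 7.80, 6.57 and 9.08 RPKM in hid1, against 3.87, 2.22 and 4.15 RPKM in WT (1.02, limma adjusted p = 0.00734). CYP94B3, a hydroxylase of the active hormone, passed the filter on low values through hid1 alone. It did not pass in the main fit (limma adjusted p = 0.0518). It was called higher with a replicate block (limma adjusted p = 0.0197) and without WT replicate 1 (limma adjusted p = 0.00368). Leaving out WT replicate 1 left WT values of 0.42 and 0.52 RPKM. Both calls rest in part on the filter. JMT, a jasmonate methyltransferase, was called lower without the filter on low values (limma adjusted p = 0.0471). Its levels were low, at 0 to 0.19 RPKM in hid1 and 0.31 to 0.51 RPKM in WT. Of 10 perception and transcription factor genes none passed with limma at the adjusted threshold, and 2 (TPL and JAM3) had an unadjusted p under 0.05 (median of the list 0.04). The most abundant of these were the corepressor gene TPL, at 49.4 ± 2.64 RPKM in hid1 and 41.6 ± 1.35 RPKM in WT (0.24, limma adjusted p = 0.137), and the adaptor gene NINJA, at 31.1 ± 2.93 RPKM in hid1 and 27.2 ± 0.979 RPKM in WT (0.18, limma adjusted p = 0.298). MYC2, the main transcription factor of the response, stood at 17.37, 13.95 and 13.38 RPKM in hid1, and at 24.86, 11.46 and 10.87 RPKM in WT, and WT replicate 1 was well above the rest. It was named after its values were seen.

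Of 12 JAZ genes, which encode repressors of the response, 8 were tested, 2 rose and 1 fell (median 0.07), where 9.41% of all genes tested rose and 4.21% fell. JAZ6 fell to 7.71, 6.0 and 7.69 RPKM in hid1, against 15.25, 14.52 and 14.22 RPKM in WT (-0.95, limma adjusted p = 0.00103), while JAZ1 and JAZ11 rose (0.66 and 0.57, limma adjusted p = 0.0179 and 0.0423). JAZ11 lost its call in 9 of the 13 other settings and JAZ1 in 3, and none of the list rose without hid1 replicate 3, without WT replicate 3 or without the filter on low values. JAZ5 was called lower without that filter (limma adjusted p = 0.0232), at low levels of 0.15 to 0.35 RPKM in hid1 and 0.67 to 0.87 RPKM in WT. JAZ10 was called higher without WT replicate 1 (0.67, limma adjusted p = 0.0332), and its genotypes overlapped over all libraries. Of 10 genes known as induced by jasmonate, 5 were tested and 1 fell. VSP1 and PDF1.2 entered the test through their WT level alone, and PDF1.2 through WT replicate 3, so the direction of the list is not read. CORI3, a coronatine-induced gene, fell to 0.41, 0.62 and 2.67 RPKM in hid1, against 8.21, 6.68 and 5.46 RPKM in WT (-1.92, limma adjusted p = 0.00294). Here again hid1 replicate 3 was the hid1 library nearest to WT. The 4 that did not pass were VSP1, VSP2, PDF1.2 and ORA59. PDF1.2 was called lower without WT replicate 1 (limma adjusted p = 0.0387), where its WT values were 0.35 and 6.19 RPKM in replicates 2 and 3. The genes THI2.1, MYB21 and MYB24 were listed at 0 in all libraries.

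**Figure D4:**
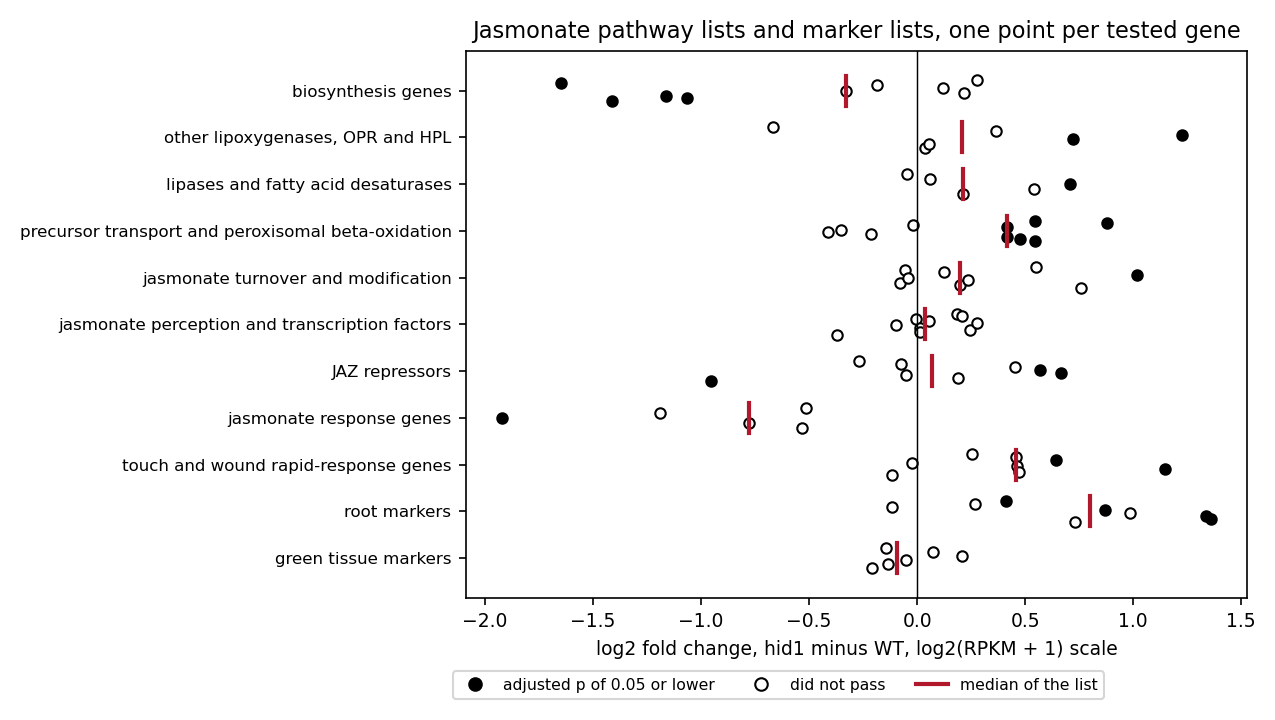
Log2 fold changes (hid1 minus WT, log2(RPKM + 1) scale) of the tested genes of each list, filled where the adjusted p was 0.05 or lower, with the list's median in red. VSP1 and PDF1.2 among the response genes entered through WT alone. The 4 filled biosynthesis genes lie between -1.65 and -1.06, and the 6 filled genes of precursor transport and beta-oxidation between 0.42 and 0.88.

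Markers of organs and of handling gave these values beside the falls of LOX2, AOS, AOC1 and AOC2. None of 6 green tissue markers passed with limma, and none had an unadjusted p under 0.05. Their summed level was 55780 to 68410 RPKM in hid1 and 63160 to 63990 RPKM in WT. Of 8 root markers, EXPA7, PRP3, SCR and PIN2 rose and 4 did not pass, where 9.41% of all genes tested rose, with a sum of 114.2 to 192.8 RPKM in hid1 and 58.66 to 120.9 RPKM in WT. That count was 1 under each of the other 3 scalings and 0 without the filter on low values. It was 0 or 1 without hid1 replicate 1, 2 or 3 or WT replicate 2 or 3. Without WT replicate 1 it was 5, and with a replicate block 6. Of 8 genes known for rapid induction by touch or wounding, TCH3 and WRKY40 rose, with a summed level of the list of 111.8 to 150.8 RPKM in hid1 and 77.3 to 87.02 RPKM in WT. Without TCH3 the sums overlapped, at 43.64 to 59.5 RPKM in hid1 and 44.93 to 45.7 RPKM in WT. By gene, all hid1 libraries lay above all WT libraries in 4 of the 8 and below in 0. Over all genes tested these shares were 23.1% and 11.4%. The median log2 fold change of the touch and wound list was 0.46. An unadjusted limma p under 0.05 was found in 4 of these 8 genes and in 6 of the 8 root markers. WRKY40 lost its call without hid1 replicate 2 or WT replicate 2 (limma adjusted p up to 0.0673). No marker of these lists was at 0 in a library. The part of roots and of handling in the results was not tested.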

How the data were processed

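Gene-level RPKM values of 6 poly(A) libraries, 3 of hid1 and 3 of WT seedlings aged 5 days, were deposited by the authors, 1 table per library, per the file headers. The libraries were grouped and numbered by their titles. Per the submitters' processing notes, reads were mapped to TAIR10, and TopHat2 2.0.9 and Cuffdiff 2.0.0 were used. For the counting tool, its gene models and its use of strand and of reads with several matches: not given in the sources used here.

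Genes averaging 1 RPKM or more in hid1 or in WT were tested with limma 3.58.1 (R 4.3.3) on log2(RPKM + 1), with a mean-variance trend and Benjamini-Hochberg adjustment over the 18871 genes tested. This scale understates the change of low genes. Calls were made at an adjusted p of 0.05 or lower, and the fit was tested on simulated data. The summed AOC level was compared by a two-sided exact permutation test over libraries. Depth was estimated from the step between low RPKM values and RefSeq exon lengths, available for 32827 of the 33323 gene IDs, and read numbers are approximate for that reason. Depth sets a floor of precision for LOX3, LOX4 and AOC3, the members with the fewest reads.

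Upstream and coding sequences, positions and gene names came from RefSeq's TAIR10.1 assembly by gene ID (10 of 10 members matched). Coding sequences were aligned with Biopython 1.88 in place of proteins, which were not analysed here. The alternatives were another pseudocount (0.1 or 5), no filter, quantile normalization, a replicate block, scaling by median ratios, a correction for gene length, and leaving out each library. All members are described. From each other jasmonate list the text names up to 4 genes past the threshold with the smallest adjusted p, or the 2 most abundant where none passed, and marks exceptions. The members and lists were chosen with earlier results of these data known.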

Additional observations from a re-analysis of the deposited data

How the results depend on the processing

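No call of the 2569 changed genes turned its direction under any of the 13 other settings. With a library left out, 1430 (WT replicate 2) to 3260 (WT replicate 1) genes changed, and 1819 did without the filter on low values. The biosynthesis genes that fell numbered 3 or 4 when a library was left out and 2 without the filter, where 25794 genes entered the fit and its adjustment. The 7 other jasmonate lists together held 14 changed genes among 53 tested, where 13.6% of all genes tested changed. With quantile normalization they held 9, where 2648 of 18871 genes changed in all. They held 6 without hid1 replicate 3 (1614 of 18897 in all) and 17 without WT replicate 1 (3260 of 18871 in all). These were the fewest and the most with a library left out, and the cause was not tested. The log2 difference of the summed AOC level was -1.22 to -0.83 when a library was left out. The log2 fold change of AOC3, which did not pass, was -0.0882 without WT replicate 3 and 0.2828 without WT replicate 1, the lowest and highest with a library left out.

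Replicate numbers were not taken to pair hid1 with WT libraries, and whether they do was not settled. The deviations of same-numbered libraries from their genotype means correlated at 0.315, 0.0607 and 0.105 for replicates 1, 2 and 3. WT replicates 1 and 3 correlated best with the hid1 library of the same number, and WT replicate 2 with hid1 replicate 3 (0.255). With a replicate block, 3635 of 18871 genes tested changed, 2384 higher and 1251 lower. Among them were 4 of the biosynthesis genes and 18 genes of the 7 lists. The jasmonate response genes that fell then numbered 3 against 1, with PDF1.2 and ORA59 added (limma adjusted p = 0.0394 and 0.0169). PDF1.2 entered the test through WT replicate 3 alone, so that count is not read. The block left the AOC log2 difference at -0.96, with an exact paired p of 0.25, the smallest 3 pairs allow.

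With 3 libraries per genotype, 1 library can decide a call, as for LOX2. Depth limits LOX4, LOX3 and AOC3, which rest on few reads, about 43 to 71, 67 to 195 and 105 to 172 per library.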
